A study of Mus musculus with 2 samples.

Results

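The respiratory chain genes of mouse were described in open chromatin of Stag3 KO GSCs. The set held 83 genes of the 21887 protein-coding genes in the RefSeq gene table of GRCm38. They were chosen by symbol alone, as all protein-coding genes whose symbol starts with Nduf, Sdh or Uqcr, together with the Cox4i to Cox8c subunit genes. By complex, 47 belong to complex I, 8 to complex II, 8 to complex III and 20 to complex IV, assembly factors included.

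The study concerned cohesin complexes that hold STAG3, and ATAC-seq was run on 2 libraries of 1 group, Stag3 KO GSCs of the cell line labelled Acrosin-EGFP; beta-Actin-EGFP (AAG). In ATAC-seq the Tn5 transposase cuts and tags accessible DNA, and sites with many tags are called as peaks. Both libraries share the Stag3 knockout and both reporters, and were made from sorted AAG-positive viable cells, with 50000 cells per reaction. Wild-type cells, which the design text names as the comparison, were not analysed here. The labels leave unstated what the Stag3 deletion covers and whether the line is 1 clone. They also give no culture for replicates 1 and 2, whose spread may therefore be only technical. With 1 group there was no condition to test, and every comparison is between genes within these libraries.

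The respiratory chain sits in the inner mitochondrial membrane. Complex I oxidises NADH and complex II oxidises succinate, both pass electrons to ubiquinone, complex III passes them on to cytochrome c, and complex IV reduces oxygen, and the proton gradient built up on the way drives the ATP synthase. Most subunits are encoded in the nucleus and assembled with mitochondrially encoded ones by dedicated assembly factors. Several subunits of complex IV have a second gene that is expressed in testis, muscle or lung, and NRF1, the ETS factor GABP and YY1 are known activators of the nuclear genes.

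The deposited lists held 107331 peaks in replicate 1 and 98986 peaks in replicate 2, and 83732 replicate 1 peaks overlapped a replicate 2 peak by at least 1 bp. Each such pair is called a shared region here. The fold of a peak is the authors' enrichment over the local background, and its median over all peaks was 8.78 in replicate 1 and 8.73 in replicate 2. The number of tags at each summit was recovered from fold and p-value and had a median of 40 in replicate 1 and 41 in replicate 2. The total depth of each library was unknown. As a check of the label, 10 of 10 germ cell marker genes had a shared region within 1000 bp, against 16 of 20 markers of Sertoli, Leydig, fibroblast, endothelial and blood cells and 75.7% of all protein-coding genes, so the near-gene count says little of the cell type. At RefSeq starts the counts were 7 of 7 germ cell markers and 1 of 7 somatic markers, against 65.9% of all genes. The other markers have no RefSeq start in the table used. Within 1000 bp of a gene end lay 10 of 10 germ cell and 8 of 20 somatic markers, against 65.8% of all genes. Start regions above the median fold of both libraries stood at 4 of 7 germ cell markers and 0 of 7 somatic ones, against 52.7%. Of the 5 Leydig cell markers, Star, Hsd3b1 and Insl3 had no peak in either list. Strong regions lay near other somatic markers, among them Pecam1 with 31.5-fold and 30.8-fold, Pdgfra with 30-fold and 28.5-fold and Spi1 with 25.7-fold and 27.1-fold in replicates 1 and 2. The part of other cells in the values was not tested. Stag3 had a region of 19.9-fold (replicate 1) and 18.8-fold (replicate 2), which also lay at the end of Gpc2. A peak at Stag3 does not check the knockout.

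Nearly all respiratory chain genes lay at accessible sites that both libraries shared. A shared region lay within 1000 bp of the gene model for 77 of the 83 genes (92.8%), against 75.7% of all protein-coding genes. Within 1000 bp of a gene end the count was 74 genes (89.2%), against 65.8% of all. RefSeq promoters, which give strand and start, matched 67 of the 83 genes, and 61 of those 67 (91.0%) had a shared region within 1000 bp of the start, against 65.9% of the 17492 protein-coding genes with such a start. The respiratory chain genes were also short, with a median model of 7510 bp, against 17169 bp over all genes. Every respiratory chain gene with a peak had one in both libraries, and 0 had a peak in 1 library only. Over all protein-coding genes, 17007 had a near peak in replicate 1, 16864 had one in replicate 2 and 16576 had a shared region. A peak in both libraries was thus usual for any gene with a peak.

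The share of strong sites was less far from the background near the gene than at the start. Counting regions above the median fold of both libraries, 72 genes (86.7%) had one near the gene, against 66.2% of all genes, and 58 of 67 (86.6%) had one at the start, against 52.7%. A region above the 90th percentile of fold in both libraries lay near 20 of the 83 genes (24.1%), against 19.9% of all genes. At the start such regions lay at 15 of 67 respiratory chain genes (22.4%), against 11.4% of all genes. For each gene the region of highest fold percentile is called its best region. Best regions had a median fold of 19.3 in both replicates over the 77 genes. Over all genes with a region it was 18.4 in replicate 1 and 19.1 in replicate 2, so the typical best site had a similar fold. A best region is picked over the whole gene model, and the median model was 7510 bp here against 17169 bp over all genes. The part of gene length in the best folds was not tested. Of the 77 genes, 38 lay above the median of all genes in both libraries and 34 below it in both. At starts the median fold was 18.7 in replicate 1 and 19.5 in replicate 2 for respiratory chain genes, against 15.4 in replicate 1 and 16.4 in replicate 2 for all genes. The best sites had a median of 154 summit tags in replicate 1 and 167 in replicate 2, against 138 and 147 tags over all genes in replicates 1 and 2.

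**Figure D1:**
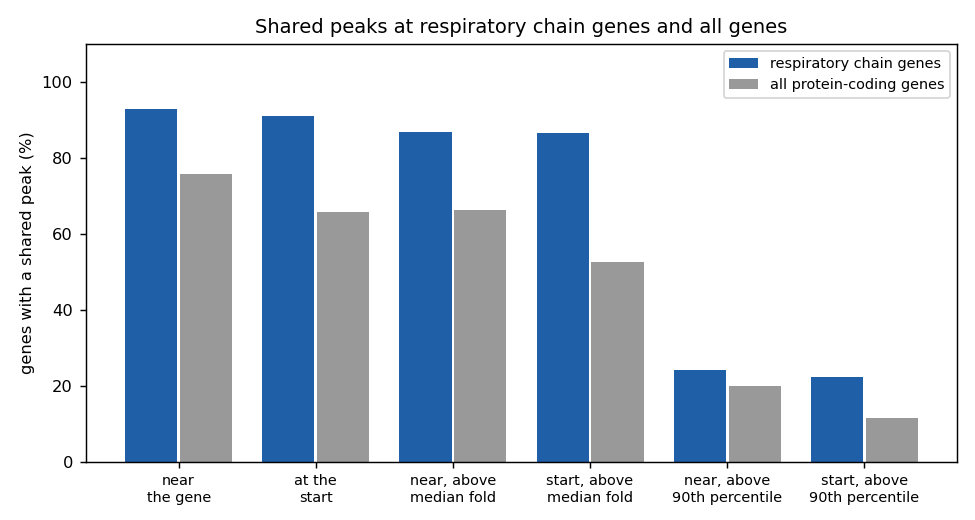
Percentage of genes (y axis) with a shared region under 6 definitions (x axis), for respiratory chain genes (blue, 83 near the gene and 67 with a RefSeq start) and all protein-coding genes (grey, 21887 and 17492). The blue bar is the higher one in each pair, with the smallest gap for near-gene regions above the 90th percentile, 24.1% against 19.9%.

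The letters of the promoters were read beside the peaks. RefSeq gives 69 windows of 250 bases before to 50 after the start for the 67 matched genes (GRCm38.p6), and each was searched on both strands for NRF1 (GCGCA, then any base, then GCGC), ETS (CCGGAAG), YY1 (AAGATGGCG), SP (GGGCGG), CRE (TGACGTCA) and CCAAT. The following 4 windows are shown because they carry motifs of the known activators under start peaks above the median fold of both libraries. All are written 5′ to 3′ along the gene, with matches to NRF1, ETS, YY1 or CRE in capitals. Sdhd lies at chr9:50603800-50604099 on the minus strand, Ndufs5 at chr4:123718137-123718436 on the minus strand, Cox6a1 at chr5:115348909-115349208 on the minus strand and Ndufaf8 at chr11:120098684-120098983 on the plus strand.
Sdhd: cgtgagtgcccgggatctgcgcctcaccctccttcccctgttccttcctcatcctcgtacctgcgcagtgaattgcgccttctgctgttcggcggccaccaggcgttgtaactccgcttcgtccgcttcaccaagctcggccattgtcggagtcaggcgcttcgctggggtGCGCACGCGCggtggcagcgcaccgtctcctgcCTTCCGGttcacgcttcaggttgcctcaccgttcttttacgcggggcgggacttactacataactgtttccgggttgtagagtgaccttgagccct
Ndufs5: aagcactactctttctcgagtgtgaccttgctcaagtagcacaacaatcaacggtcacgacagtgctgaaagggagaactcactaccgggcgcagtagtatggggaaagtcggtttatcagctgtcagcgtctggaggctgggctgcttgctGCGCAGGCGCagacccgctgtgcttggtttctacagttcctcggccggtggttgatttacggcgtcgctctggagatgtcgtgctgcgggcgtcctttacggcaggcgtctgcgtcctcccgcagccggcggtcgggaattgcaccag
Cox6a1: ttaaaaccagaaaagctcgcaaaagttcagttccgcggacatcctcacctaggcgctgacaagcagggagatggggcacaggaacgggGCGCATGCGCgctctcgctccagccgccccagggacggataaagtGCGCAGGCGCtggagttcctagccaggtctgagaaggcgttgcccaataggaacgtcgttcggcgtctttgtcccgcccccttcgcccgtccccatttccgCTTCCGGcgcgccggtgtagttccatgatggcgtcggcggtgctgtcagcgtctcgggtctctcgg
Ndufaf8: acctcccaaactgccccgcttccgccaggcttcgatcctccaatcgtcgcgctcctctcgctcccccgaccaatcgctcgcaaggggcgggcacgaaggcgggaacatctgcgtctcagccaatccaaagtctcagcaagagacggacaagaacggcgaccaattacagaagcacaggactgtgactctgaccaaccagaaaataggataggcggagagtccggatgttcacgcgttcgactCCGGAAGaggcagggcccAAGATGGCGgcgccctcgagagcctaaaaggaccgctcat

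Counted from the start base as 0, the Sdhd window held an NRF1 match at -79 to -70 and an ETS match at -46 to -40, and its summits lay at -43 in replicate 1 and -24 in replicate 2. In Ndufs5, an accessory gene with 20.6-fold and 25-fold, the NRF1 match ran from -98 to -89, beside summits at -97 and -115. Cox6a1 had NRF1 matches at -162 to -153, which read the same on both strands, and at -117 to -108, and an ETS match at -16 to -10. The Cox6a1 summits lay at -67 in replicate 1 and -80 in replicate 2, between the NRF1 and ETS matches and on neither. In Ndufaf8 an ETS match at -8 to -2 stood just before the start and a YY1 match at 10 to 18 just after it. The Ndufaf8 summits lay at -162 in replicate 1 and -120 in replicate 2, upstream of both matches. These matches are letters in a window and not measured binding.

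NRF1 and YY1 letters were more common in respiratory chain promoters than in promoters at large. NRF1 matched 16 of 69 windows (23.2%), against 6.38% of 21263 protein-coding windows. ETS matched 16 windows (23.2%), against 11.6%, and YY1 matched 6 (8.70%), against 1.83%. CRE matched 4 (5.80%), against 2.23%. The general promoter motifs were near the background, with SP in 34 windows (49.3%), against 46.2%, and CCAAT in 26 (37.7%), against 38.2%. Among windows with a start peak the shares for NRF1 were 23.8% of 63 respiratory chain windows and 8.82% of 14706 windows of all genes. In these windows ETS matched 23.8%, against 15.5%, and YY1 matched 5 (7.94%), against 2.54%. There SP stood the other way, in 52.4% of respiratory chain windows and 61.5% of all. Windows of respiratory chain genes with a start peak had a median observed over expected CpG ratio of 0.833, against 0.730 for all windows with one, and the part of base composition in the motif shares was not tested.

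The counts per complex were small and were not tested against each other. By genes, 32 of 67 (47.8%) had an NRF1, ETS or YY1 match, against 3493 of 17492 (19.97%) of all genes. In complex II, NRF1 letters stood at 4 of 7 genes (Sdha, Sdhd, Sdhaf3 and Sdhaf4) and ETS letters at 5 of 7. In complex I, NRF1 letters stood at 9 of 41 genes and ETS letters at 6 of 41, and all 6 genes with YY1 letters were of complex I, which holds 41 of the 67 promoter-matched genes (Ndufa9, Ndufaf8, Ndufc1, Ndufs4, Ndufs6 and Ndufs7). In complex III, 1 of 5 genes had NRF1 letters and 2 of 5 had ETS letters. In complex IV, Cox6a1 alone of 14 genes had NRF1 letters, and Cox6a1, Cox6b1 and Cox8a had ETS letters. Sdhd, Sdhaf3 and Cox6a1 had both NRF1 and ETS letters, 3 of 67 genes (4.48%), against 245 of 17492 (1.40%) of all genes. Over all protein-coding windows the shares were 6.38% for NRF1 and 11.6% for ETS. The ETS share of complex I genes, 14.6%, stood near the latter.

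Complex I, the largest enzyme of the chain, had a shared region near 42 of its 47 genes (89.4%), against 75.7% of all protein-coding genes. The median best fold was 17.9 in replicate 1 and 18.8 in replicate 2. The classes within the complexes are small, and their counts were not tested against the share of all genes. Its 7 nuclear core subunits carry the flavin, the iron-sulphur clusters and part of the quinone site, and 5 of the 7 had a region. Ndufv1, which binds NADH and the flavin, had the strongest core site, at chr19:4012417-4013256, with 28.3-fold and 411 tags in replicate 1 and 30.2-fold and 479 tags in replicate 2. Ndufv2, its iron-sulphur partner, had 21.5-fold and 23.9-fold in replicates 1 and 2. Ndufs3, of the arm that leads to the quinone site, had 20.9-fold and 20.4-fold in replicates 1 and 2. These 3 sites lay at the start, each with a summit within 150 bp of it.

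The other core genes departed from that pattern. Ndufs1, the largest iron-sulphur subunit, had its best region inside the model with 16.0-fold and 13.4-fold in replicates 1 and 2, while the region at its end had 10.8-fold and 11.8-fold but more tags, 114 and 110 against 51 and 41. Ndufs1 has no RefSeq start in the table used. Ndufs7 and Ndufs8, which hold the last iron-sulphur clusters before quinone, had no peak within 1000 bp in the lists used here. The nearest peak lay 3140 bp from Ndufs7 in replicate 1 and 3163 bp in replicate 2. For Ndufs8 the nearest peak lay 1391 bp away in replicate 1 and 1367 bp in replicate 2, and was a strong one of 15.2-fold and 17.4-fold.

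Accessory subunits surround the core and do not carry redox centres. Of 30 such genes, 29 had a near region, with a median fold of 16.2 in replicate 1 and 18.2 in replicate 2, the lowest medians of any class with regions. The 3 strongest by mean fold percentile were Ndufa3 with 29.9-fold and 29.1-fold, Ndufa5 with 28.7-fold and 29.8-fold, and Ndufa2 with 25.5-fold and 27.4-fold in replicates 1 and 2. Ndufb10 was the weakest, at 3.96-fold (replicate 1) and 5.03-fold (replicate 2), but its summits held 83 and 106 tags over a local background of 20.2 and 20.3 tags. Next came Ndufa6, with 6.33-fold and 6.83-fold, whose best region lay at the far end from its start, within 1000 bp of Smdt1. Ndufa9 had 15.7-fold and 61 tags in replicate 1 and 8.85-fold and 33 tags in replicate 2. Its summits lay at different places, -17 bp from the start in replicate 1 and 304 bp in replicate 2, and an overlapping start region had 4.29-fold and 10.2-fold. Ndufb5 had no peak in the lists used here, and its nearest peaks lay 12415 bp away in replicate 1 and 12466 bp in replicate 2. Ndufb4b and Ndufb4c, short copies of Ndufb4, also had none within 1000 bp, while Ndufb4 itself had 16.0-fold and 15.2-fold.

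Assembly factors build complex I and are not part of the finished enzyme. All 8 had a region, against 75.7% of all genes, with medians of 21.4-fold (replicate 1) and 22.4-fold (replicate 2). A region above the 90th percentile in both libraries lay near 4 of the 8, against 19.9% of all genes. Ndufaf7, a protein methyltransferase, had the strongest site, at chr17:78936709-78937490, with 30.2-fold and 376 tags in replicate 1 and 30.6-fold and 439 tags in replicate 2. Ndufaf8, the partner of Ndufaf5, had 25.6-fold and 27.7-fold over the window printed above. Ndufaf2, a chaperone of late assembly, had 25.2-fold and 26.5-fold. Lower were Ndufaf4 with 14.7-fold and 18.6-fold, Ndufaf6 with 14.0-fold and 11.1-fold, and Ndufaf3 with 5.47-fold and 5.46-fold. Ndufaf3 and Ndufaf4 act together in early assembly, and their folds differed by more than the libraries did. Their tags were closer, 81 and 86 at Ndufaf3 against 96 and 126 at Ndufaf4 in replicates 1 and 2. The local background was 14 and 14.9 tags at Ndufaf3, against 5.62 and 5.84 tags at Ndufaf4. The Ndufaf3 region also lay within 1000 bp of an end of Dalrd3.

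Complex II, succinate dehydrogenase, is wholly encoded in the nucleus and also works in the citric acid cycle. All 4 subunit genes and all 4 assembly factor genes had a region at a gene end, against 65.8% of all genes. The catalytic flavoprotein gene Sdha was the lowest subunit, with 14.5-fold (replicate 1) and 15.1-fold (replicate 2). The iron-sulphur subunit gene Sdhb had 25.4-fold and 26.1-fold with 380 and 468 tags. The membrane anchor gene Sdhc had 28.8-fold and 29.8-fold with 198 and 178 tags. The other anchor gene, Sdhd, had 24.3-fold and 162 tags in replicate 1 and 18.8-fold and 134 tags in replicate 2. Sdhb and Sdhc thus had like folds on unlike tag counts. Among assembly factors, Sdhaf1 had 23.7-fold and 22.9-fold and Sdhaf3 21.1-fold and 22.1-fold, both known to help mature the iron-sulphur subunit. Sdhaf4 had 16.2-fold and 18.4-fold, and Sdhaf2, which attaches the flavin to Sdha, had 14.6-fold and 14.7-fold with 52 and 50 tags at its best region, which lay inside the gene. Its start region had 11.1-fold and 125 tags in replicate 1 and 16.5-fold and 188 tags in replicate 2.

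Complex III, the cytochrome bc1 complex, had a region at a gene end of all 8 genes, against 65.8% of all protein-coding genes. All 8 had a near region above the median fold of both libraries, against 66.2%. Uqcr10 and Uqcrb, small subunits, were the strongest, with 28.7-fold and 28.4-fold for Uqcr10 and 28.2-fold and 26.4-fold for Uqcrb in replicates 1 and 2. The core gene Uqcrc2 had 23.8-fold and 24.5-fold. The other core gene, Uqcrc1, had 12.6-fold and 65 tags in replicate 1 and 19.2-fold and 112 tags in replicate 2, a wider gap between libraries than at any other complex III gene. The Rieske protein gene Uqcrfs1, which carries the iron-sulphur cluster, had 17.5-fold and 19.5-fold. The hinge protein gene Uqcrh had 17.7-fold and 18.3-fold, Uqcrq had 17.2-fold and 17.9-fold, and Uqcr11 had 14.6-fold and 17.6-fold. Neighbours in this order of 4 overlapped in their range over the libraries.

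Complex IV, cytochrome c oxidase, had a region near all 11 general subunit genes, against 75.7% of all protein-coding genes. Their median was 19.7-fold (replicate 1) and 22.3-fold (replicate 2). Cox7c had the strongest site, at chr13:86046640-86047045, with 31.6-fold and 409 tags in replicate 1 and 33.3-fold and 414 tags in replicate 2. Cox8a had 25.8-fold and 27.2-fold, and had the most tags of all respiratory chain genes, 511 and 559. Cox6b1 had 23.7-fold and 28.8-fold, Cox7a2 had 22.95-fold and 24.6-fold, and Cox5b had 22.2-fold and 22.3-fold. Around the median stood Cox5a with 19.7-fold and 23.6-fold and Cox6a1 with 19.3-fold and 20.2-fold. Lower were Ndufa4, a complex IV subunit despite its name, with 15.8-fold and 15.6-fold, and Cox4i1, a regulatory subunit, with 14.5-fold and 14.2-fold. Cox6c had 8.51-fold and 32 tags in replicate 1 and 13.4-fold and 56 tags in replicate 2, the widest gap between libraries toward replicate 2. The X-linked Cox7b had its best region 590 bp beyond the far end of the gene, with 11.9-fold and 9.35-fold, and its start region had 6.98-fold and 6.89-fold. Of the 2 related genes, the supercomplex factor gene Cox7a2l had 20.3-fold and 24.1-fold. Ndufa4l2, known as a hypoxia-induced relative of Ndufa4, had 13.8-fold and 197 tags in replicate 1 and 17.7-fold and 327 tags in replicate 2.

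**Figure D2:**
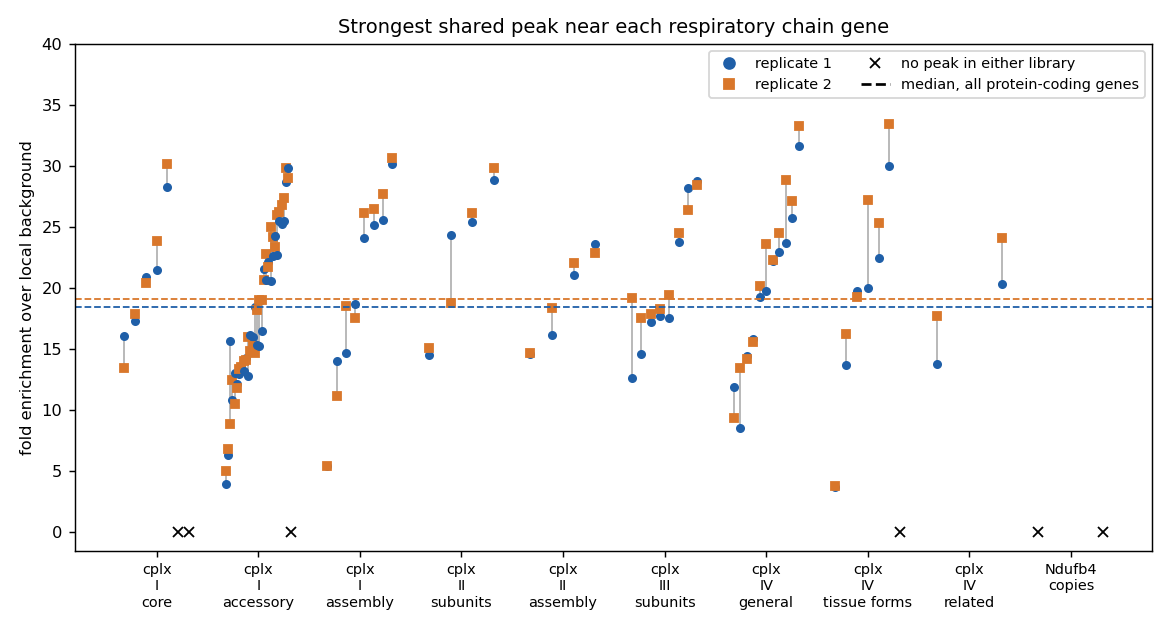
Fold enrichment over local background (y axis) of the best shared region of each gene, by class (x axis; cplx stands for complex), with replicate 1 as blue circles, replicate 2 as orange squares, a grey line joining them and crosses for genes with no peak in either library. Dashed lines are the medians over all protein-coding genes with a region, 18.4 in replicate 1 and 19.1 in replicate 2, and most classes lie on both sides of them.

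All 3 testis forms of complex IV subunits had a shared region, as most genes did, and their order relative to the general forms depended on the subunit. Cox7b2 had 30.0-fold and 416 tags in replicate 1 and 33.5-fold and 497 tags in replicate 2, against 11.9-fold and 134 tags and 9.35-fold and 103 tags for Cox7b in the same libraries. The log2 ratio of folds, Cox7b2 over Cox7b, was 1.33 in replicate 1 and 1.84 in replicate 2. That Cox7b region lies 590 bp beyond the far end of the gene, and the Cox7b start region was lower, with 6.98-fold and 6.89-fold. The Cox7b2 site lay at the start, at chr5:71548088-71548556, and 3 further shared regions lay inside the gene. Cox7b is on the X chromosome and Cox7b2 on chromosome 5. Across the X chromosome 62.9% of 966 protein-coding genes had a near region, and all 3 X-linked respiratory chain genes did (Ndufa1, Ndufb11 and Cox7b), with medians of 12.1-fold and 11.8-fold, against 18.05-fold and 18.2-fold over X-linked genes with a region.

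For Cox6b2, which encodes the form found in sperm, fold and tags ranked the pair in opposite ways. Cox6b2 had 13.7-fold and 16.2-fold, against 23.7-fold and 28.8-fold for Cox6b1 in replicates 1 and 2, log2 ratios of -0.79 and -0.83. Its summits held 379 and 408 tags, against 150 and 209 tags for Cox6b1. The local background was 26.7 and 24.2 tags at Cox6b2, against 5.38 and 6.28 tags at Cox6b1. Cox6b2 has a second start region, next to the first, and its best region also lies within 1000 bp of Fam71e2.

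Cox8c, the third testis form, had 20-fold and 75 tags in replicate 1 and 27.2-fold and 97 tags in replicate 2, against 25.8-fold and 511 tags and 27.2-fold and 559 tags for Cox8a. The log2 ratio of folds was -0.36 in replicate 1 and 0.0034 in replicate 2, so the folds did not separate the pair beyond the spread between libraries, while the tags were lower at Cox8c in both. The local background was 2.80 and 2.60 tags at Cox8c, against 18.9 and 19.6 tags at Cox8a. All 3 testis forms had a region at a gene end, a count too small to set against the 65.8% of all genes. The testis form of cytochrome c, Cyct, had a start region of 19.8-fold and 22.3-fold, against 13.8-fold and 9.78-fold for the general form Cycs, whose region lay away from its start.

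The forms known from other tissues did not share 1 pattern. The muscle form gene Cox6a2 had the weakest site of all respiratory chain genes, 3.67-fold and 30 tags in replicate 1 and 3.78-fold and 25 tags in replicate 2, against 19.3-fold and 20.2-fold for Cox6a1, and that site also lay at an end of Itgad. The log2 ratios of folds were -2.39 and -2.42. The muscle form gene Cox8b had no peak in the lists used here, with the nearest 2935 bp away in replicate 1 and 2850 bp in replicate 2. By contrast the muscle form gene Cox7a1 had 22.5-fold and 25.3-fold, against 22.95-fold and 24.6-fold for Cox7a2, with log2 ratios of -0.03 and 0.05. The lung form gene Cox4i2 had 19.8-fold and 19.3-fold, against 14.5-fold and 14.2-fold for Cox4i1, but its region lay 973 bp outside the gene model. Over all 7 pairs, the tissue form had the higher fold in both libraries for Cox7b2 and Cox4i2.

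**Figure D3:**
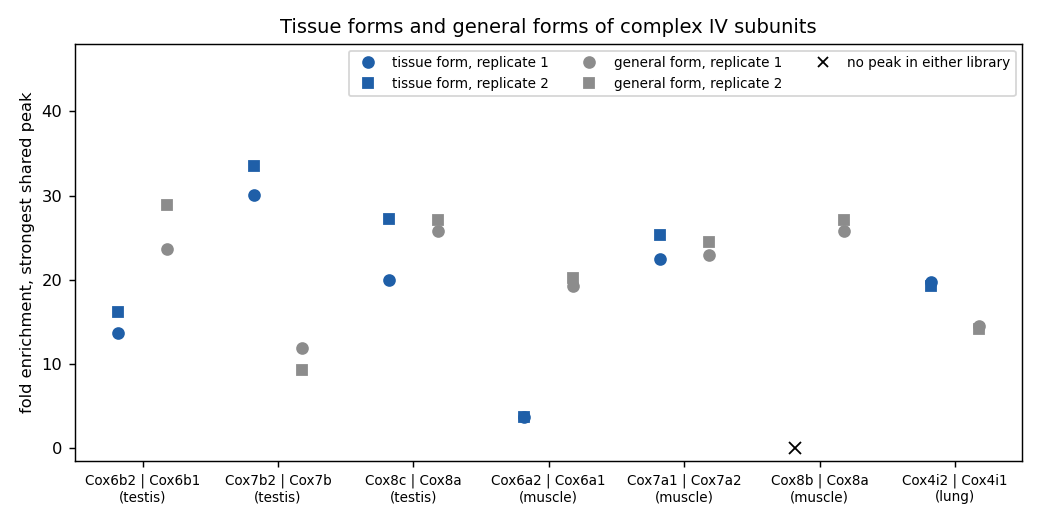
Fold enrichment (y axis) of the best shared region of each tissue form (blue, left of each pair) and general form (grey, right) of a complex IV subunit, with circles for replicate 1, squares for replicate 2 and a cross for no peak in either library. Cox7b2 lies above Cox7b, at 30.0 and 33.5 against 11.9 and 9.35, Cox6a2 lies lowest at 3.67 and 3.78, and Cox8b has no peak.

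Windows of tissue forms and of Ndufs7, a core gene without a peak, are shown for contrast with the promoters above. Cox7b2 lies at chr5:71548156-71548455, Cox6b2 at chr7:4753045-4753344 and Cox8b at chr7:140900397-140900696, all on the minus strand, and Ndufs7 at chr10:80249199-80249498 on the plus strand, written as before with matches to NRF1, ETS, YY1 or CRE in capitals.
Cox7b2: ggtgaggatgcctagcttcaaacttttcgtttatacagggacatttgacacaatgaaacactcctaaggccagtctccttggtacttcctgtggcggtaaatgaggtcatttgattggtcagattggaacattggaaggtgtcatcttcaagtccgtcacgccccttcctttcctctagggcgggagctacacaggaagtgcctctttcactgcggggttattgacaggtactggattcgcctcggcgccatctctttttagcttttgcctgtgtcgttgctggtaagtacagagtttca
Cox6b2: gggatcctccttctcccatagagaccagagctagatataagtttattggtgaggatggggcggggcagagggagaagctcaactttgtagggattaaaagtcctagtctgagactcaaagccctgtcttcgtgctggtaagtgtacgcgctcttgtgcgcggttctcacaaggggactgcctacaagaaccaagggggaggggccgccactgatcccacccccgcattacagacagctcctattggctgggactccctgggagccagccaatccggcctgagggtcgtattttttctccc
Cox8b: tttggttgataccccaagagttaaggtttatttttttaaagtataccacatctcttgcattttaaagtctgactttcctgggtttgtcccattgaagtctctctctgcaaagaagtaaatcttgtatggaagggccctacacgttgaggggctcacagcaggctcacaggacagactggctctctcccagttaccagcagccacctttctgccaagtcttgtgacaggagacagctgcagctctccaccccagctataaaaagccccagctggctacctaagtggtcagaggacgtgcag
Ndufs7: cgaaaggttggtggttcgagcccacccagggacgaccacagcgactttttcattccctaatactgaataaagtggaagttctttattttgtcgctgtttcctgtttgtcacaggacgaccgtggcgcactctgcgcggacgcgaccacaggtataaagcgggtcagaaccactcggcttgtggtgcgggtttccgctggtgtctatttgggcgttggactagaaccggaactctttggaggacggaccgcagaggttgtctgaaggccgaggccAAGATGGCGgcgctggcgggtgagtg

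The Cox7b2, Cox6b2 and Cox8b windows held no match to those 4 motifs, and the Ndufs7 window held a YY1 match at 24 to 32. Cox7b2 and Cox6b2 each held 1 SP match and 3 CCAAT matches, while Cox8b held neither. Thus the start peak of Cox7b2, above the 90th percentile in both libraries, stood over a window with none of the activator letters, and the YY1 letters of Ndufs7 stood in a window with no peak in the lists used here. No match says only that these exact letters are not in this window.

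At starts, summits sat close to the first transcribed base. For each gene with a start region, the summit position was taken as the mean of both libraries. Over the 61 genes its median lay at -42 bp, upstream of the start, against -48 bp over all genes with one. The mean position lay within 150 bp of the start for 50 of 61 genes (82.0%), against 63.4% of all genes. A mean can stand between summits that differ in place, such as those of Ndufa9 at -17 bp and 304 bp. The mean position was upstream for 45 of 61 genes, near the 8078 of 11521 over all genes. The start regions had a median width of 718 bp, against 710 bp over all genes, so the mean positions were tighter on regions of like width. For 56 of the 61 genes the start region was also the best region. The other 5 were Cox7b, Ndufa8, Ndufb6, Ndufs4 and Sdhaf2. In Ndufa8, an accessory gene, the start region had 11.2-fold and 11.3-fold, against 22.2-fold and 21.7-fold at its best region.

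**Figure D4:**
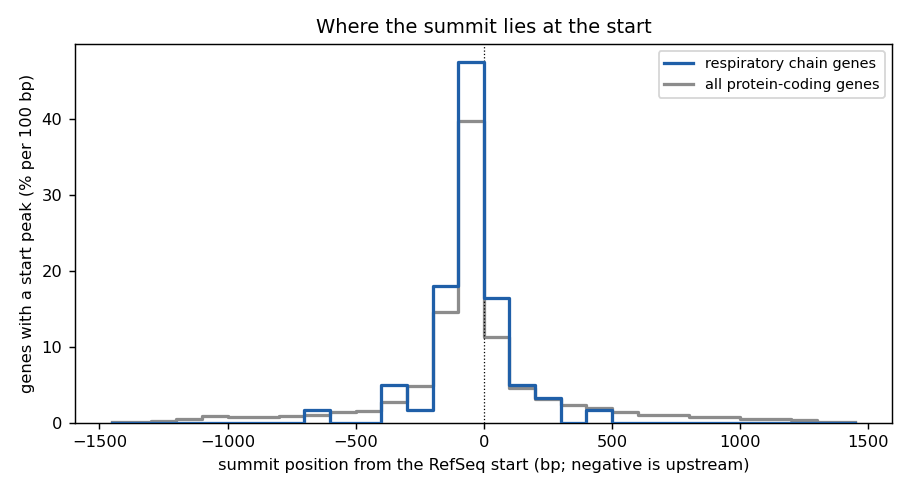
Distance of the summit, as the mean of both libraries, from the RefSeq start in bp (x axis, negative is upstream) against the percentage of genes with a start region per 100 bp (y axis), for respiratory chain genes (blue, 61) and all protein-coding genes (grey, 11521). The blue line is higher close to the start, where 82.0% of respiratory chain genes and 63.4% of all genes had a mean summit position within 150 bp.

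In all, 122 shared regions lay near the 77 genes, and 32 genes had more than 1. The share of all genes with more than 1 is not given here, so the 32 cannot be called many or few. By place, 77 regions lay at a start, with medians of 15.7-fold (replicate 1) and 18.2-fold (replicate 2). A further 21 lay inside 13 gene models, with 13.5-fold and 8.64-fold, and 8 lay at the far end of 6 genes, with 7.56-fold and 6.83-fold. The remaining 16 lay at an end of 14 genes without a RefSeq start, with 15.8-fold and 16.0-fold. For 5 genes the start regions included pairs that overlapped each other, so the 122 regions count some sites more than once. At Sdha, for example, both regions held the same replicate 2 peak.

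Many of the sites were shared with another gene. The best region of 32 of 77 respiratory chain genes (41.6%) also lay within 1000 bp of an end of another protein-coding gene, against 17.6% of all genes with a region. For start regions the counts were 25 of 61 (41.0%), against 20.4%. Several partners are themselves mitochondrial, among them Timm8b beside Sdhd, Mrpl36 beside Ndufs6 and Smdt1 beside Ndufa6. Others serve other functions, such as Rps28, a ribosomal protein gene beside Ndufa7, Rbm10, a splicing factor gene beside Ndufb11, and Ercc8, a DNA repair gene beside Ndufaf2. Signal at such a site cannot be told apart between the genes that share it.

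The libraries gave similar values at these genes. The log2 ratio of summit tags, replicate 2 over replicate 1, had a median of 0.14 and an SD of 0.28 over the 77 best regions, against a median of 0.13 and an SD of 0.40 over all genes. Replicate 2 had more tags at 53 genes and replicate 1 at 24. Over all genes with a region, replicate 2 had more at 10889 of 16576 and replicate 1 at 5455, so the lean was general. The ratio ran from -0.89 at Ndufa9, where the summits differ in place, to 0.81 at Cox6c, and tags differed by more than 1.5 times at 4 genes, namely Ndufa9, Cox6c, Uqcrc1 and Ndufa4l2. Ndufa9, Cox6c and Uqcrc1 were also the 3 genes whose folds differed by more than 1.5 times. The share of all genes with such gaps is not given here.

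**Figure D5:**
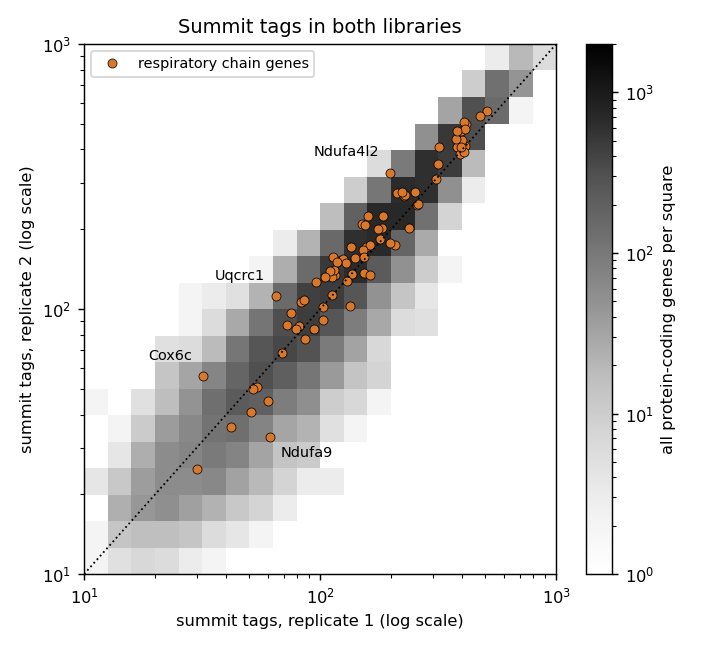
Summit tags of the best region in replicate 1 (x axis) and replicate 2 (y axis), both on log scales, for respiratory chain genes (orange points, 77) over all protein-coding genes (grey squares, darker for more genes), with a dotted line of equal tags. The points follow the grey cloud slightly above the line, and the 4 named genes differ by more than 1.5 times between libraries.

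Of 57 further genes in 4 lists, 3 of oxidative phosphorylation and cytochrome genes and 1 of their regulators, 54 (94.7%) had a near region, against 75.7% of all protein-coding genes. All 18 ATP synthase genes had one, led by mean fold percentile by Atp5e at 31.6-fold (replicate 1) and 32.3-fold (replicate 2) and Atp5h at 27.6-fold and 30.7-fold. All 3 cytochrome c and c1 genes had one, and Cyc1, the cytochrome c1 of complex III, had 20.5-fold and 18.2-fold. Among 25 assembly genes of complexes III and IV, 22 had one, and Coa3, which acts early in assembly of complex IV, had 32.0-fold and 36.2-fold, above every respiratory chain gene by fold in both libraries. Coa6, a copper handling factor, followed by mean percentile with 27.3-fold and 28.8-fold. The 3 without a shared region were Cox14 and Sco2, with a peak in replicate 2 only, and Surf1, with a peak in each library that did not overlap.

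All 11 regulators of mitochondrial genes had a near region, against 75.7% of all genes. Ppargc1a, the coactivator known as a master switch of mitochondrial biogenesis, had 31.1-fold (replicate 1) and 29.2-fold (replicate 2), away from its start, the highest of the list in replicate 1 only. Polrmt, the mitochondrial RNA polymerase gene, had 28.3-fold and 31.1-fold, the highest in replicate 2. Nrf1, whose motif was counted above, had 11.0-fold and 11.8-fold. Gabpa, the DNA-binding subunit of GABP, shared 1 region of 19.9-fold and 20.8-fold with the ATP synthase gene Atp5j.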

How the data were processed

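ATAC-seq peak lists of 2 libraries of mouse Stag3 KO GSCs were used, 1 list per library, so peaks had been called per library. Per the submitters' processing notes, the tools were MACS2 2.1.1, deepTools 3.5.0, Bowtie2 2.3.4.1 (an aligner), bedtools 2.29.2, Trim Galore and Picard 2.18.23, on the builds mm10 and GRCm38.p3. The options used, such as any Tn5 shift, duplicate filter or region filter, are not given in the sources used here, and they set which sites pass and where summits fall. The deposited values are an integer score for display (not used), the fold enrichment as a ratio over local background, the −log10 p-value and −log10 q-value, and the summit offset, by the column order of this peak format. The fold was used only to describe and rank within a list.

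From these, summit tags were solved as the whole number that satisfies fold and p-value together, with a relative tolerance of 1e-05 plus an absolute one of 0.0001, and were found for 100% of peaks. A shared region is a replicate 1 peak and the replicate 2 peak overlapping it most, by at least 1 bp, and spans both. Genes and promoters came from RefSeq tables of GRCm38. No test was run, since the design holds 1 group, and total read depth is unknown. Members, lists, motifs and classes were chosen with earlier results of these data known. Ndufb4b and Ndufb4c were put in a class of their own, and the 90th percentile of fold was added, after the data were seen. Genes named with values are all those of complexes II, III and IV, the core of complex I (1 gene of which is not reported here), genes without a shared region, the 3 highest and 3 lowest in each other complex I class, and the 2 highest per further pathway list, and genes named beyond this for neighbours, starts, motifs or spread between libraries were chosen after their values were seen. Window, threshold, overlap, summit distance and single libraries were tried as alternatives. Calculations used Python 3.11.15 with pandas 2.3.3, numpy 2.4.6 and scipy 1.17.1, and the steps were tested on simulated data.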

Additional observations from a re-analysis of the deposited data

How the results depend on the processing

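Counts of respiratory chain genes with a near region were 76 with a window of 500 bp, which loses Cox4i2, and 79 with 2500 bp, which adds Ndufs8 and Ndufb4c. That makes 1 of the 2 Ndufb4 copies, against 0 at 1000 bp. The count was 77 with a −log10 q of at least 5, with an overlap of 50% of both peaks, and in each library alone. It was 72 with the 50000 peaks of highest fold, with peaks above the median fold (Cox6a2, Cox6c, Ndufa6, Ndufaf3 and Ndufb10 lost in both), and with summits within 100 bp (Cox6a2, Ndufa9, Ndufb7, Ndufc2 and Uqcrq lost). Over all protein-coding genes the near share was 75.1% at 500 bp and 77.5% at 2500 bp. It was 75.5% with the q limit, 74.7% with the 50% overlap, 77.7% in replicate 1 alone and 77.1% in replicate 2 alone. With the 50000 peaks the share of all genes was 65.3%. With peaks above the median fold, filtered before pairing, it was 66.4%, and with summits within 100 bp 73.7%.

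The median best fold, 19.5 as the mean of both libraries, was 18.3 at 500 bp, 18.5 at 2500 bp and 20.9 under each of those 3 stricter settings, each of which loses 5 genes. Leaving out a replicate gave 19.3 either way. Median summit tags, 156 in the main setting, were 166 with the 50000 peaks or peaks above the median, and 154 to 171 without 1 replicate. Of 105 alternative values, 94 stayed within the limits set and 11 moved.

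No paired analysis was possible because the libraries form 1 group and nothing was tested. Depth is unknown, 16 of 83 genes lack a RefSeq start in the table used, and a gene without a peak was not detected as open at these thresholds, which does not show that it is closed.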

Other observations

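Pseudogenes with the same symbol stems had few shared regions, as did pseudogenes in general. Of 10 such loci, 2 had a shared region within 1000 bp, against 11.7% of all 10609 pseudogenes. The 10 loci had a median length of 504 bp, so their windows were far shorter than those of the protein-coding genes. Ndufa12-ps had 7.53-fold (replicate 1) and 9.92-fold (replicate 2) at 757 bp from the locus, and Ndufs6b had 4.28-fold and 5.65-fold at 693 bp. Neither region overlapped the locus itself.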
